A study of Mus musculus with 34 samples.

Results

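The genes described here are 8 mouse genes tied to the TH17 programme of CD4 T cells other than the IL-17 cytokines themselves: the transcription factors Rora and Ahr, the cytokine receptors Il23r and Il1r1, the chemokine receptor Ccr6 with its ligand Ccl20, and the membrane proteins Tmem176a and Tmem176b. They were taken by name and not by a cut on a measured value, but with earlier results of these data known. They are 8 of 27179 gene identifiers in the count tables. All 8 were found and all 8 passed the filter on low counts. Tmem176a, Tmem176b and Ccl20 never exceeded 9 counts in any TfhA_4e4 library, so these genes passed the filter through the other groups.

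RNA was measured in 34 libraries prepared with a kit that reads the 3′ ends of transcripts, so longer genes do not gain counts by their length. Levels are not compared between genes, except as the count ratios of Ccr6 to Ccl20 and of Tmem176b to Tmem176a. The cells were naive CD4 T cells of C57BL/6 mice, grown on plate-bound antibodies to CD3 and CD28 and sorted by flow cytometry before RNA isolation. The series title names TGF-beta, the TFH and TH17 fates and c-Maf, but the labels do not say what the culture codes and numbers stand for, nor the sort gate, the age or the sex of the mice. The 6 groups are TfhA_4e4 (5 libraries), Tfh5_4e4 (6), and Tfh2 with the numbers 1e4 (6), 2e4 (5), 4e4 (6) and 6e4 (6). All groups share the strain, the starting cells, the stimulation and the library kit. Whether replicates stem from separate mice or cultures is not stated, and the p-values therefore reflect only the spread between the samples, which may be technical.

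TH17 cells are helper T cells of barrier tissues that release IL-17 cytokines under lineage factors that include RORα. The receptors for IL-1 and IL-23 sustain that programme, AHR tunes it through small aromatic ligands, and CCR6 steers the cells towards CCL20 made by epithelia and by TH17 cells themselves. TMEM176A and TMEM176B are membrane-spanning proteins related to the MS4A family that are found in TH17 cells.

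The regions at the starts of some of these genes are shown in 4 windows because the levels of the genes across the groups took different shapes. The printed letters let the sites of the factors discussed below be seen. The sequences are RefSeq promoter windows of 300 bases on GRCm38.p6, printed on the strand of the gene. RefSeq windows were matched for 7 of the 8 genes, 12 windows in all. In the first 3, capitals mark matches on either strand to AGGTCA (the core bound by ROR factors), GCGTG (the AHR and ARNT core), TGCTGAC (a c-Maf element core) or TTCNNNGAA (a STAT element). CAGACA (a SMAD element) was searched too and is in none of the 4 windows shown. No printed match overlaps another.
Il23r, chr6:67491806-67492105, minus strand: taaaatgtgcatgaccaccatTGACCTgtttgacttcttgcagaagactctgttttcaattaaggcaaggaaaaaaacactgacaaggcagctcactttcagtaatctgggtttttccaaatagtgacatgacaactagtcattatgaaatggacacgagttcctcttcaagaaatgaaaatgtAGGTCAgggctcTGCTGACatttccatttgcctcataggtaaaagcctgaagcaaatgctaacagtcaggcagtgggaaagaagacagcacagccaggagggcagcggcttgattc
Ccr6, chr17:8235793-8236092, plus strand: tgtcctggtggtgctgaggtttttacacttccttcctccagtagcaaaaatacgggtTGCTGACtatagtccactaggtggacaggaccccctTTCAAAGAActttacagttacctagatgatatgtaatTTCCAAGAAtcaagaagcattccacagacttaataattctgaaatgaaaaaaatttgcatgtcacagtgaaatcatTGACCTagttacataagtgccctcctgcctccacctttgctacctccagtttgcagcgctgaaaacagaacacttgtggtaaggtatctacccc
Ccl20, chr1:83116516-83116815, plus strand: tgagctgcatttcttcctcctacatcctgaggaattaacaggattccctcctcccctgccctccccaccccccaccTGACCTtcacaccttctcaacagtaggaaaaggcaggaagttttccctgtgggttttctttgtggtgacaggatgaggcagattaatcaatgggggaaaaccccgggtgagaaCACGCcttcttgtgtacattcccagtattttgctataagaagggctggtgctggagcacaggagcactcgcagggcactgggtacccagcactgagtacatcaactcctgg
Tmem176a and Tmem176b, chr6:48841233-48841532, plus strand: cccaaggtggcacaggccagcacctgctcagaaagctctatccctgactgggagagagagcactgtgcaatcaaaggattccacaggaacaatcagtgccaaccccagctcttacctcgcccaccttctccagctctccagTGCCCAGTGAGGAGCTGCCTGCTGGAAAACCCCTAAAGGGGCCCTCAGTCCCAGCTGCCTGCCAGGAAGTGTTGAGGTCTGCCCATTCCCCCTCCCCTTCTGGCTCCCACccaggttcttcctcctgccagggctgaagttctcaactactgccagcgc

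The Il23r window holds AGGTCA at position 185 and its reverse complement at position 22, and TGCTGAC at position 197, counted from the 5′ end of the printed strand. The printed Ccr6 window holds TGCTGAC at position 58, TTCNNNGAA at positions 94 and 131, and AGGTCA on the other strand at position 207. A further Ccr6 window, chr17:8242276-8242575, holds none of the 5 motifs. The Ccl20 window holds AGGTCA on the other strand at position 77 and GCGTG on the other strand at position 190. Of 32851 promoter windows of the same length, 16.3% hold AGGTCA, 32.4% GCGTG, 4.67% TGCTGAC, 8.3% TTCNNNGAA and 21% CAGACA, on either strand, so a match is common and is a description only. In the window of Tmem176a and Tmem176b, capitals mark the stretch between an annotated start of each gene, 48841483 for Tmem176a and 48841374 for Tmem176b. These starts are 109 bases apart and on opposite strands, and both genes also have windows at other starts. None of the 5 motifs was in the windows of these 2 genes.

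Total counts were 4481509 to 9934245 per library, of which 48.3% fell on the identifiers 100861531 and 19791, to which the annotation gives no symbol. Levels are given as CPM, counts scaled to the normalized total of each library, and errors are SD over the libraries of a group. All 7 T cell markers examined (Cd3e, Cd3d, Cd3g, Cd4, Trac, Cd2, Cd28) had counts in every group, at a summed 1528 to 2470 CPM per library. The sum was not even across groups. It was 1532 to 1662 CPM in TfhA_4e4, 1938 to 2280 in Tfh5_4e4 and 2019 to 2336 in Tfh2_4e4, without overlap between TfhA_4e4 and the other codes at 4e4. Its median was 1657 CPM in Tfh2_1e4, 1956 in Tfh2_2e4, 2244 in Tfh2_4e4 and 2328 in Tfh2_6e4. The part of these differences in the results was not tested. Summed B cell markers reached at most 1.52 CPM in a library (Cd79a at 0 in 5 of the 6 groups), myeloid markers 2.35 CPM, NK and innate lymphoid markers 2.59 CPM (Ncr1 and Klra8 at 0 throughout) and erythroid markers 2.82 CPM (Hba-a1, Hba-a2 and Hbb-bs at 0 throughout). Of 5 erythroid markers, 4 were in the count tables. Only 3 of 5 gamma delta T cell markers were in the count tables, and these summed to between 1.34 and 10.4 CPM. Both CD8 T cell markers summed to 3.85 to 15.5 CPM, with a median of 9.95 CPM in TfhA_4e4 and 6.62 CPM in Tfh2_4e4, nearly all from Cd8b1 (Cd8a at 0 in Tfh5_4e4), and their part in the results was not tested. In bulk RNA, fewer cells of a type and less RNA per cell cannot be told apart. Mitochondrial rRNA genes took 12.6% to 17.3% of the counts outside those 2 identifiers in TfhA_4e4, against 8.37% to 11.1% in Tfh5_4e4 and 8.06% to 11.1% in Tfh2_4e4. Calls lost, and values moved by over 1.5 times, when this share enters the fit are given beside the results described, and its part in them was not tested.

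**Figure D1:**
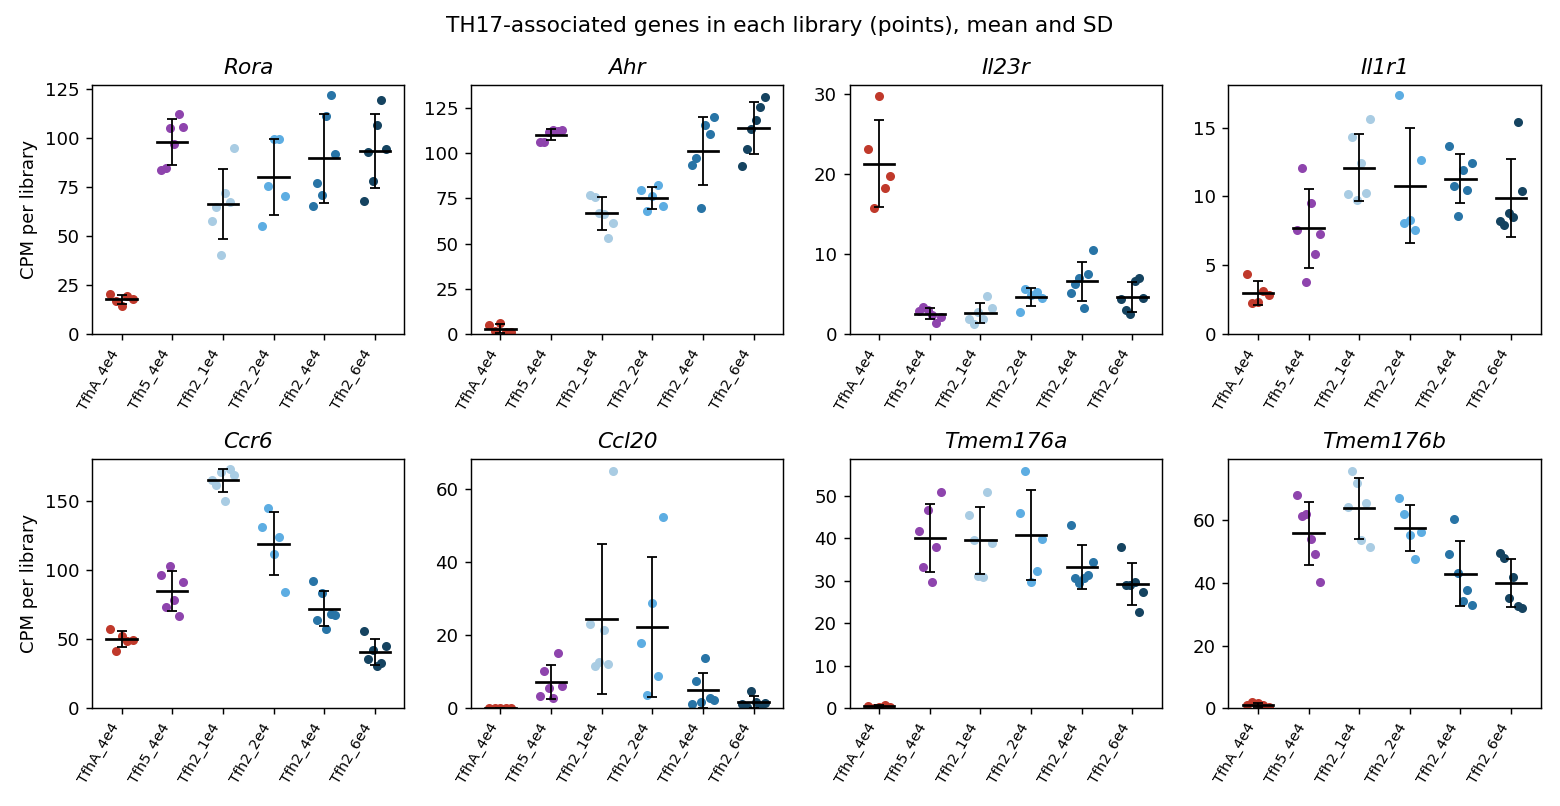
CPM of the 8 genes (y axes, each on its own linear scale) in every library of the 6 groups (x axes); points are libraries, bars the mean and SD. Il23r is the gene whose TfhA_4e4 libraries all lie above every other library (15.8 to 29.7 CPM), while Ccl20 has 0 counts in TfhA_4e4 and Ccr6 falls across the Tfh2 numbers.

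Between the culture codes at 4e4, all 8 genes passed the test for TfhA_4e4 against each of the other codes, and Il23r was the exception in direction. TfhA_4e4 overlapped Tfh5_4e4 in Il1r1, and Ccr6 lost its call against Tfh2_4e4 in the settings named below. The factor genes, the IL-1 receptor, the chemokine pair and the TMEM176 pair were lower in TfhA_4e4, and Il23r was higher. In edgeR's quasi-likelihood test with Benjamini-Hochberg adjustment, 1 of the 8 genes was called higher and 7 lower against Tfh2_4e4, where 15.5% of 11357 genes tested were called higher, 17.4% lower and 32.8% in either direction. Against Tfh5_4e4 the counts were again 1 higher and 7 lower, where 19.1% of all genes were called higher, 20.4% lower and 39.5% in either direction. The comparisons share the TfhA_4e4 libraries, so they are not independent of each other. Among the genes called lower, Ccl20, Tmem176a and Tmem176b passed the filter through the groups where they are high. Their direction is therefore partly set by the filter, and they enter both the counts and the medians. The 8 genes were also chosen with earlier results of these data known, so these counts and medians describe and do not support. The median log2 fold change of the 8 genes was -3.65 against Tfh2_4e4 and -3.78 against Tfh5_4e4, beside -0.011 and -0.0031 over all genes, and is the same with Ccl20 at the bound given below.

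Rora encodes RORα, a nuclear receptor of the TH17 programme (Rora, identifier 19883, GRCm38.p6 chromosome 9, 68653404 to 69388246). Its TfhA_4e4 libraries had 20.5, 16.8, 14.6, 19.5 and 18.1 CPM. Tfh5_4e4 libraries ran from 83.7 through a median of 101 to 112 CPM, and Tfh2_4e4 libraries from 65.4 through 84.5 to 121.7 CPM. Every TfhA_4e4 library was below every library of the other 5 groups, whose lowest value was 40.6 CPM in Tfh2_1e4. Rora averaged 17.9 ± 2.33 CPM in TfhA_4e4 (n = 5), 98.0 ± 11.6 in Tfh5_4e4 and 89.7 ± 22.8 in Tfh2_4e4 (n = 6 each). The log2 fold change was -2.45 against Tfh5_4e4 (SE 0.19, edgeR adjusted p = 6.98e-15) and -2.32 against Tfh2_4e4 (SE 0.19, edgeR adjusted p = 5.18e-14). With the mitochondrial rRNA share in the fit the values were -3.19 and -3.04. Exons of Rora overlap the predicted gene Gm15511 on the other strand, and the strand setting of the counting is not given, so reads of these 2 genes cannot be told apart here.

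Ahr encodes the aryl hydrocarbon receptor, a ligand-activated factor (identifier 11622, chromosome 12, 35497979 to 35534989). In the TfhA_4e4 libraries Ahr stood at 5.17, 1.66, 6.13, 1.56 and 1.41 CPM, from 6 to 37 counts each. In Tfh5_4e4 it stood at 105.9 to 112.7 CPM, with a median of 111.9, and in Tfh2_4e4 at 69.4 to 119.7 CPM, with a median of 104. The groups did not overlap, and the TfhA_4e4 values fell into 2 replicates above 5 CPM and 3 below 2 CPM. The 6 Tfh5_4e4 libraries differed by 1.06 times at most, a coefficient of variation of 2.93%. The log2 fold change of Ahr was -5.10 against Tfh5_4e4 (SE 0.21, edgeR adjusted p = 5.90e-24) and -4.98 against Tfh2_4e4 (SE 0.21, edgeR adjusted p = 1.60e-23). Against Tfh2_4e4 it was -4.29 in replicates 1 to 3 alone and -6.25 in replicates 4 to 6 alone. Ahr overlaps Gm48236 on the other strand, with the same limit as for Rora.

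Il23r encodes the IL-23-specific chain of the IL-23 receptor (identifier 209590, chromosome 6, 67422932 to 67491855). TfhA_4e4 libraries had 23.1, 15.8, 29.7, 18.2 and 19.8 CPM. Tfh5_4e4 libraries had 1.42 to 3.40 CPM with a median of 2.71, and Tfh2_4e4 libraries 3.30 to 10.5 CPM with a median of 6.63. TfhA_4e4 did not overlap any other group, and the largest value elsewhere was the 10.5 CPM of a Tfh2_4e4 library. Il23r was 3.03 higher on the log2 scale in TfhA_4e4 than in Tfh5_4e4 (SE 0.30, edgeR adjusted p = 2.39e-11) and 1.67 higher than in Tfh2_4e4 (SE 0.28, edgeR adjusted p = 5.69e-06), in 5 of 5 libraries each.

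Il1r1 encodes the signalling receptor for IL-1 (identifier 16177, chromosome 1, 40222480 to 40316201). TfhA_4e4 libraries had 4.38, 2.28, 2.32, 3.12 and 2.82 CPM, on 11 to 26 counts. Tfh5_4e4 libraries spread from 3.79 to 12.1 CPM around a median of 7.41, and Tfh2_4e4 libraries from 8.56 to 13.7 CPM around 11.3. TfhA_4e4 was separate from Tfh2_4e4, but 1 Tfh5_4e4 library at 3.79 CPM lay within the TfhA_4e4 range. The log2 fold change was -1.37 against Tfh5_4e4 (SE 0.28, edgeR adjusted p = 7.56e-05) and -1.91 against Tfh2_4e4 (SE 0.27, edgeR adjusted p = 2.37e-07).

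Ccr6 encodes the receptor for CCL20 (identifier 12458, chromosome 17, 8236041 to 8258519) and had the smallest difference of the 8 genes between these cultures. TfhA_4e4 libraries had 57.3, 41.4, 51.9, 48.9 and 49.6 CPM. Tfh5_4e4 libraries had 66.5 to 102.6 CPM with a median of 84.8, and Tfh2_4e4 libraries 57.6 to 91.8 CPM with a median of 67.9. The highest TfhA_4e4 library came just under the lowest Tfh2_4e4 library. Its log2 fold change was -0.76 against Tfh5_4e4 (SE 0.14, edgeR adjusted p = 1.90e-05) and -0.53 against Tfh2_4e4 (SE 0.14, edgeR adjusted p = 0.00268). The call against Tfh2_4e4 was lost with the mitochondrial rRNA share in the fit (-0.41, edgeR adjusted p = 0.166) and in replicates 4 to 6 alone (-0.39, edgeR adjusted p = 0.115).

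Ccl20, the chemokine that CCR6 binds (identifier 20297, chromosome 1, 83116766 to 83119167), had 0 counts in all 5 TfhA_4e4 libraries, which allows up to 0.105 CPM over the group at a floor of 3 counts. Tfh5_4e4 libraries had 2.71 to 15.2 CPM with a median of 5.84, and Tfh2_4e4 libraries 1.21 to 13.7 CPM with a median of 2.60. The groups did not overlap, although Ccl20 varied more between replicates than any other of the 8 genes in the 5 groups that had counts. Its highest library was 5.61 times its lowest in Tfh5_4e4, 5.62 in Tfh2_1e4, 15.1 in Tfh2_2e4, 11.3 in Tfh2_4e4 and 14.0 in Tfh2_6e4. Against the floor, Ccl20 was at least 66.8-fold lower in TfhA_4e4 than in Tfh5_4e4, at least 240-fold lower than in Tfh2_1e4, at least 241-fold lower than in Tfh2_2e4 and at least 14.99-fold lower than in Tfh2_6e4. Single libraries set part of these bounds. Without Tfh2_1e4 replicate 6 the bound against that group was 152-fold, without Tfh2_2e4 replicate 6 it was 141-fold, and without Tfh2_6e4 replicate 3 it was 9.43-fold. The bound of 47.1-fold against Tfh2_4e4 became 30.4-fold without Tfh2_4e4 replicate 4. Ccl20 passed against Tfh5_4e4 (edgeR adjusted p = 1.03e-05) and against Tfh2_4e4 (edgeR adjusted p = 8.26e-05), but not against Tfh2_4e4 in limma-voom (adjusted p = 0.0931). Both calls held with the mitochondrial rRNA share in the fit (edgeR adjusted p = 0.000129 and 0.000566).

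Tmem176a (identifier 66058, chromosome 6, 48841483 to 48845364) and Tmem176b (identifier 65963, chromosome 6, 48833811 to 48845948) lie on opposite strands, and by these coordinates Tmem176a lies within Tmem176b. Both genes were close to the detection limit in TfhA_4e4. Tmem176a had 3, 0, 2, 7 and 1 counts there, and Tmem176b 5, 9, 9, 7 and 1. Tmem176a ran from 29.8 to 51.0 CPM in Tfh5_4e4 (median 39.8) and from 29.6 to 43.2 CPM in Tfh2_4e4 (median 31.0). Every library of the other groups had at least 135 counts of Tmem176a. Tmem176b ran from 40.2 to 68.2 CPM in Tfh5_4e4 (median 57.8) and from 33.1 to 60.5 CPM in Tfh2_4e4 (median 40.4). Neither gene overlapped between TfhA_4e4 and any other group. The log2 fold change of Tmem176a against Tfh5_4e4 was -6.42 (SE 0.30, edgeR adjusted p = 1.84e-22). That of Tmem176b was -5.66 against Tfh5_4e4 (SE 0.25, edgeR adjusted p = 2.42e-23) and -5.28 against Tfh2_4e4 (SE 0.25, edgeR adjusted p = 5.16e-22). With the mitochondrial rRNA share in the fit the values of Tmem176b were -4.85 and -4.49. Their exons overlap on opposite strands, so part of the reads of these genes cannot be told apart without the strand setting.

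**Figure D2:**
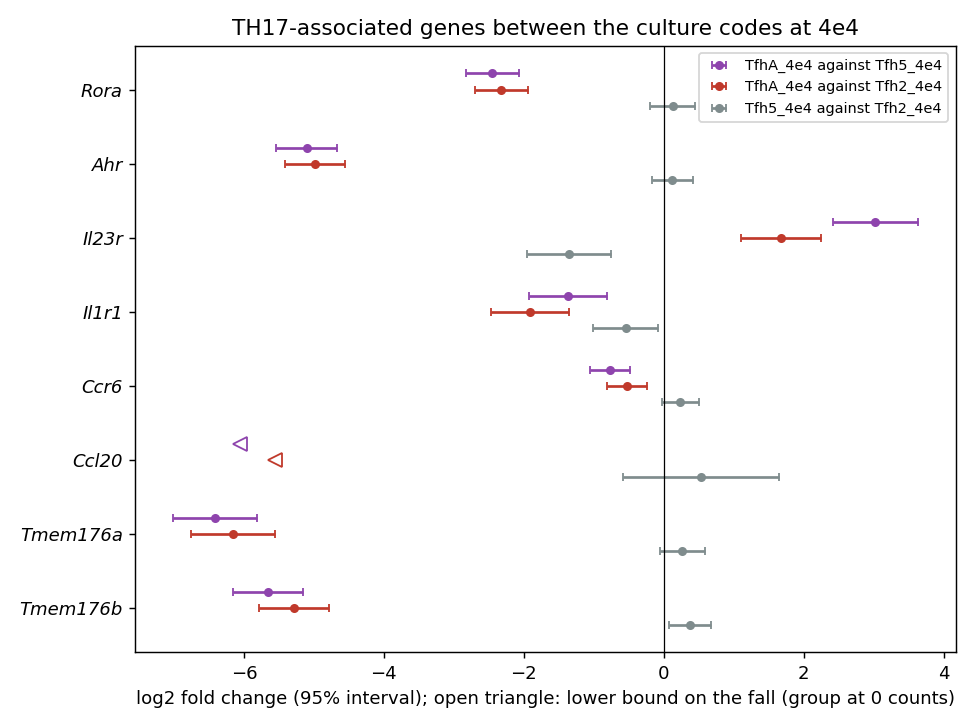
Log2 fold changes (x axis) of the 8 genes (y axis) between the culture codes at 4e4, with 95% intervals; open triangles mark the least fall of Ccl20 against the floor of 3 counts. Il23r is the gene on the positive side in both TfhA_4e4 comparisons (3.03 and 1.67) and the gene called between Tfh5_4e4 and Tfh2_4e4 (-1.35).

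Tfh5_4e4 and Tfh2_4e4 differed in 1 of the 8 genes. Il23r was lower in Tfh5_4e4, where 1.41% of all genes tested were called higher, 1.7% lower and 3.11% in either direction. The Il23r ranges met between 3.30 and 3.40 CPM, the lowest Tfh2_4e4 and the highest Tfh5_4e4 library, and all 6 Tfh5_4e4 libraries were below the Tfh2_4e4 mean of 6.64 CPM. The log2 fold change was -1.35 (SE 0.30, edgeR adjusted p = 0.00383), and it was -0.97 (edgeR adjusted p = 0.254) in replicates 1 to 3 alone. The other 7 genes did not pass edgeR's adjusted threshold, which does not show that they were alike. The 95% intervals of their log2 fold changes were -0.19 to 0.45 for Rora, -0.17 to 0.41 for Ahr, -1.01 to -0.08 for Il1r1, -0.03 to 0.50 for Ccr6, -0.58 to 1.65 for Ccl20, -0.06 to 0.59 for Tmem176a and 0.08 to 0.68 for Tmem176b. Those of Il1r1 and Tmem176b leave out 0 before adjustment, and that of Ccl20 is the widest. Il1r1 averaged 7.68 ± 2.89 CPM in Tfh5_4e4 and 11.3 ± 1.77 CPM in Tfh2_4e4 (n = 6 each) and missed the threshold (edgeR adjusted p = 0.229). Tmem176b averaged 55.9 ± 10.2 CPM in Tfh5_4e4 and 43.0 ± 10.5 CPM in Tfh2_4e4 (n = 6 each, edgeR adjusted p = 0.179), and passed with replicate number as a block (log2 fold change 0.39, edgeR adjusted p = 0.0239).

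Across the Tfh2 numbers from 1e4 to 6e4 the genes parted. Ccr6, Ccl20, Tmem176a and Tmem176b fell, Rora, Ahr and Il23r rose, and Il1r1 did not pass. These were 3 genes higher and 4 lower per doubling of the number, where 24.1% of all genes rose, 22.8% fell and 46.9% did either. For Tfh2_6e4 against Tfh2_1e4 the same 3 genes were higher and the same 4 lower, where 22.3% of all genes were called higher, 20.7% lower and 43% in either direction. So many genes passed in this series of cultures that the number of the 8 called is not a result in itself, and the levels below carry the description. The median slope of the 8 genes was -0.13, beside -0.0046 over all genes.

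The mean of Ccr6 was lower at each step of the number, with a coefficient of variation of 5.15% in Tfh2_1e4 and of 17.8% to 23.4% at the other numbers. Tfh2_1e4 libraries had 149.8 to 173.1 CPM (median 166.8), Tfh2_2e4 libraries 131.1, 145, 111.3, 123.9 and 84.0 CPM, Tfh2_4e4 libraries 57.6 to 91.8 CPM (median 67.9) and Tfh2_6e4 libraries 30.6 to 55.9 CPM (median 38.5). Tfh2_1e4 did not overlap Tfh2_2e4, and Tfh2_4e4 did not overlap Tfh2_6e4. Tfh2_2e4 and Tfh2_4e4 shared the range between 84.0 and 91.8 CPM. The slope was -0.76 per doubling (SE 0.05, edgeR adjusted p = 6.52e-18), and the log2 fold change of Tfh2_6e4 against Tfh2_1e4 was -2.03 (SE 0.14, edgeR adjusted p = 7.48e-17). The TfhA_4e4 range of 41.4 to 57.3 CPM lay within and just above that of Tfh2_6e4, so Ccr6 in TfhA_4e4 was below Tfh2_4e4 but not set apart from every Tfh2 group.

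Ccl20 fell further and less evenly. It had 11.6 to 65.2 CPM in Tfh2_1e4 (median 17.1), 17.9, 3.46, 28.7, 8.89 and 52.3 CPM in Tfh2_2e4, 1.21 to 13.7 CPM in Tfh2_4e4 (median 2.60) and 0.335 to 4.69 CPM in Tfh2_6e4 (median 1.16). The lowest and the highest number did not overlap, while neighbouring numbers did. The slope was -1.55 per doubling (SE 0.21, edgeR adjusted p = 6.53e-08). Ccl20 fell by 3.93 in Tfh2_6e4 against Tfh2_1e4 (SE 0.61, edgeR adjusted p = 1.31e-06), by 3.34 without Tfh2_1e4 replicate 6 and by 4.61 without Tfh2_6e4 replicate 3. The median of the Ccr6 to Ccl20 count ratio was 10.3 in Tfh2_1e4, 7.33 in Tfh2_2e4, 26.4 in Tfh2_4e4 and 44.6 in Tfh2_6e4, with library values from 1.61 to 98.0.

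**Figure D3:**
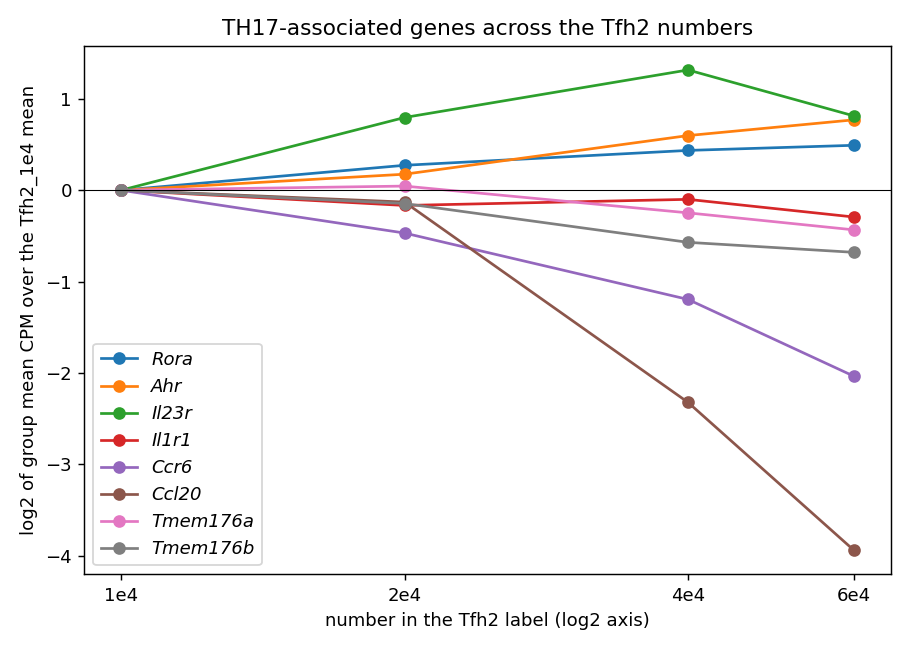
Log2 of each gene's group mean CPM over its Tfh2_1e4 mean (y axis) against the number in the Tfh2 label (x axis, log2 scaled); each line is a gene and each point a group mean of 5 or 6 libraries. Ccl20 and Ccr6 fall furthest, Ahr, Rora and Il23r lie above 0, and Il23r is highest at 4e4.

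Ahr rose with the number. Its Tfh2_1e4 libraries had 53.0 to 76.8 CPM (median 66.7), Tfh2_2e4 libraries 67.9 to 82.5 CPM (median 76.1), Tfh2_4e4 libraries 69.4 to 119.7 CPM (median 104) and Tfh2_6e4 libraries 92.9 to 131 CPM (median 115.7). Tfh2_6e4 lay wholly above Tfh2_1e4 and Tfh2_2e4 and overlapped Tfh2_4e4. The slope was 0.31 per doubling (SE 0.05, edgeR adjusted p = 3.45e-06) over all replicates and 0.19 in replicates 1 to 3 alone (edgeR adjusted p = 0.0273).

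Rora rose less, and every pair of neighbouring numbers overlapped. Its medians were 66.2 CPM in Tfh2_1e4, 75.6 in Tfh2_2e4, 84.5 in Tfh2_4e4 and 93.7 in Tfh2_6e4, and the extremes were 40.6 to 94.99, 55.0 to 99.8, 65.4 to 121.7 and 67.7 to 119.6 CPM in the same order of numbers. The slope was 0.19 per doubling (SE 0.06, edgeR adjusted p = 0.00549). It was 0.10 (edgeR adjusted p = 0.14) with the mitochondrial rRNA share in the fit, a share that averaged 8.41% in Tfh2_1e4 and 10.2% in Tfh2_6e4.

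Il23r did not follow the number step by step. It averaged 2.67 ± 1.27 CPM in Tfh2_1e4 (n = 6), 4.63 ± 1.13 in Tfh2_2e4 (n = 5), 6.64 ± 2.43 in Tfh2_4e4 (n = 6) and 4.69 ± 1.84 in Tfh2_6e4 (n = 6), and all neighbouring groups overlapped. The slope was 0.37 per doubling (SE 0.11, edgeR adjusted p = 0.00343). The difference of 0.81 between Tfh2_6e4 and Tfh2_1e4 (SE 0.29, edgeR adjusted p = 0.0234) lost its call in 5 of the fits that left out a library. These were without Tfh2_1e4 replicate 1 (adjusted p = 0.0556), 2 (0.0717) or 4 (0.0531) and without Tfh2_6e4 replicate 4 (0.0742) or 5 (0.0824), all in edgeR. The call was also lost in a fit of both groups alone (edgeR adjusted p = 0.065), in replicates 1 to 3 alone (0.167) and in replicates 4 to 6 alone (0.11).

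Il1r1 averaged 12.1 ± 2.46 CPM in Tfh2_1e4, 10.8 ± 4.19 in Tfh2_2e4, 11.3 ± 1.77 in Tfh2_4e4 and 9.88 ± 2.84 in Tfh2_6e4. The groups overlapped throughout, and the slope of -0.09 per doubling had a 95% interval of -0.25 to 0.07 (edgeR adjusted p = 0.375).

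The TMEM176 pair fell by a small amount. Tmem176b libraries had 51.4 to 76.0 CPM in Tfh2_1e4 (median 65.0), 47.7 to 67.1 in Tfh2_2e4 (median 56.4), 33.1 to 60.5 in Tfh2_4e4 (median 40.4) and 32.1 to 49.5 in Tfh2_6e4 (median 38.6). All Tfh2_6e4 libraries were below all Tfh2_1e4 libraries. The slope of Tmem176b was -0.28 per doubling (SE 0.05, edgeR adjusted p = 2.25e-05), and -0.17 with the mitochondrial rRNA share in the fit (edgeR adjusted p = 0.00411). Tmem176a had medians of 39.4, 40.0, 31.0 and 29.0 CPM from 1e4 to 6e4, with overlap between all numbers, and a slope of -0.18 per doubling (SE 0.06, edgeR adjusted p = 0.0101) that lost its call in replicates 1 to 3 alone (-0.15, edgeR adjusted p = 0.118). Its difference of -0.43 between Tfh2_6e4 and Tfh2_1e4 (edgeR adjusted p = 0.026) lost its call without Tfh2_1e4 replicate 1 (0.0622) or 5 (0.0898) and without Tfh2_6e4 replicate 5 (0.0688). The ratio of Tmem176b to Tmem176a counts had group medians of 1.33 in TfhA_4e4 (4 libraries with a value), 1.48 in Tfh5_4e4 and 1.58, 1.46, 1.17 and 1.35 from Tfh2_1e4 to Tfh2_6e4. The TfhA_4e4 value rests on at most 9 counts of a gene in a library. It leaves out replicate 2, which had 9 counts of Tmem176b and 0 of Tmem176a.

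Replicate numbers 1 to 3 and 4 to 6 differed for some of the genes within groups. The labels do not call these ranges a batch. Rora had the higher mean in replicates 4 to 6 in each of the 6 groups, with no overlap in Tfh2_1e4, Tfh2_4e4 and Tfh2_6e4. In Tfh2_4e4 it averaged 108 CPM in replicates 4 to 6 and 71.1 CPM in replicates 1 to 3. Tmem176b had the lower mean in replicates 4 to 6 in each group, with no overlap in TfhA_4e4, Tfh5_4e4, Tfh2_2e4 and Tfh2_4e4. It averaged 35.0 CPM in replicates 4 to 6 of Tfh2_4e4 and 51.0 CPM in replicates 1 to 3. Ahr averaged 115 CPM in replicates 4 to 6 and 86.8 CPM in replicates 1 to 3 of Tfh2_4e4, but 60.3 and 73.2 CPM for the same ranges of Tfh2_1e4.

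**Figure D4:**
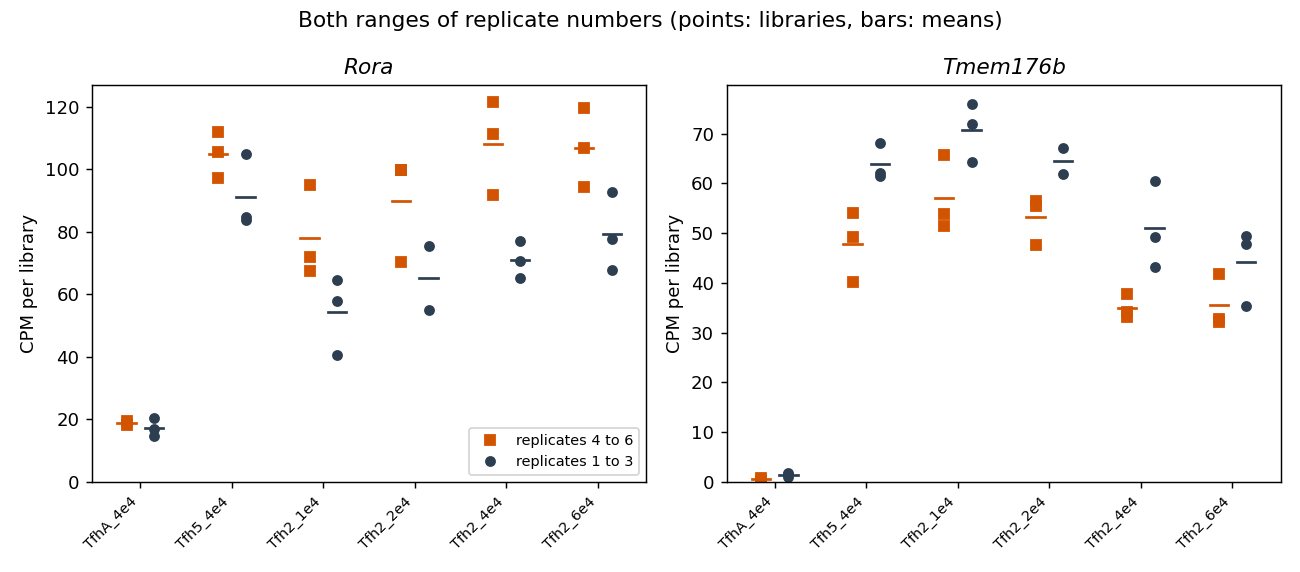
CPM of Rora and Tmem176b (y axes) in the libraries of replicates 4 to 6 (squares) and 1 to 3 (circles) of the 6 groups (x axes); bars are means. Rora means are higher and Tmem176b means lower in replicates 4 to 6 in every group.

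The partners and relatives of these genes did not all move with them. The lists below were drawn up with earlier results of these data known, so their counts describe and do not support. They are to be read against the shares over all genes, 15.5% higher and 17.4% lower for TfhA_4e4 against Tfh2_4e4 and 24.1% higher and 22.8% lower along the Tfh2 numbers. Of 20 tested genes of the wider TH17 programme, 4 were higher and 13 lower in TfhA_4e4 than in Tfh2_4e4, with a median log2 fold change of -1.21 beside -0.011 over all genes. Il17re, a chain of the IL-17C receptor, averaged 1.99 ± 0.97 CPM in TfhA_4e4 (n = 5) and 56.4 ± 10.9 CPM in Tfh2_4e4 (n = 6), a log2 fold change of -4.80 (edgeR adjusted p = 1.78e-20). Ltb4r1, the leukotriene B4 receptor, fell by 3.33 (edgeR adjusted p = 4.39e-18). Sox5, a factor that acts with c-Maf in TH17 cells of mice, was 3.19 higher (edgeR adjusted p = 6.92e-09), and 2.41 higher with the mitochondrial rRNA share in the fit. Along the Tfh2 numbers 11 of the 20 rose and 5 fell. In Tfh5_4e4 against Tfh2_4e4 2 were higher and 2 lower, where 1.41% of all genes were called higher and 1.7% lower. There, 1 was higher and 1 lower in replicates 1 to 3 alone, and 1 was lower in replicates 4 to 6 alone.

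Of 12 tested ROR response and clock genes, 1 was higher and 4 lower in TfhA_4e4 than in Tfh2_4e4 (median -0.38), and 6 rose and 1 fell along the Tfh2 numbers. Over all genes, 15.5% were called higher, 17.4% lower and 32.8% in either direction against Tfh2_4e4. The counts of this list are small and are not read as a result. With the mitochondrial rRNA share in the fit, 3 of its genes were called, all lower. Nr1d1, which encodes the repressor REV-ERBα, averaged 0.50 ± 0.40 CPM in TfhA_4e4 and 5.69 ± 2.49 CPM in Tfh2_4e4 and fell by 3.35 (edgeR adjusted p = 1.24e-07). At that low level in TfhA_4e4, Nr1d1 passed the filter through the other groups, which partly sets its direction. Nfil3, a clock-linked repressor, had the largest slope of the list at 1.14 per doubling (edgeR adjusted p = 1.75e-24).

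Of 7 tested AHR partners and targets, 2 were lower in TfhA_4e4 than in Tfh2_4e4 and no other passed edgeR's adjusted threshold (median -0.13). Cyp1b1, an AHR-induced oxidase, had 5 counts over the TfhA_4e4 group and averaged 2.76 ± 1.29 CPM in Tfh2_4e4, a log2 fold change of -3.91 (edgeR adjusted p = 4.31e-07). All 5 counts are few, and the value was -5.40 without TfhA_4e4 replicate 5. Cyp1b1 passed the filter through the other groups, so its direction here is partly set by the filter. Tiparp, an AHR-induced ADP-ribosyltransferase, averaged 41.0 ± 6.93 CPM in TfhA_4e4 and 148 ± 47.9 CPM in Tfh2_4e4 and fell by 1.85 (edgeR adjusted p = 1.13e-10). Along the Tfh2 numbers these 2 targets went opposite ways. Tiparp rose by 1.03 per doubling (edgeR adjusted p = 3.32e-17) and Cyp1b1 fell by 0.68 on the log2 scale per doubling (edgeR adjusted p = 1.01e-05), while Ahr itself rose by 0.31. Arnt, the partner of AHR, averaged 9.80 ± 2.93 CPM in TfhA_4e4 and 10.78 ± 3.76 CPM in Tfh2_4e4 and did not pass (edgeR adjusted p = 0.757).

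The IL-1 receptors differed in direction in TfhA_4e4. Il1r2, the decoy receptor that binds IL-1 without signalling, had 23.0 to 28.8 CPM in TfhA_4e4 libraries and 0 to 3.28 CPM in Tfh2_4e4 libraries, so that Il1r1 was lower and Il1r2 higher in the same cultures. The log2 fold change of Il1r2 was 4.97 (SE 0.67, edgeR adjusted p = 5.77e-08), and it was 6.61 without Tfh2_4e4 replicate 3, the library at 3.28 CPM. Against Tfh5_4e4 it was 7.02. Il1r2 passed the filter largely through TfhA_4e4, so its direction is partly set by the filter. Il1rap, the shared signalling chain, averaged 1.46 ± 0.96 CPM in TfhA_4e4 and 2.09 ± 0.90 CPM in Tfh2_4e4 and did not pass (edgeR adjusted p = 0.509). Of the 14 tested genes of the IL-1 list, 4 were higher and 3 lower (median 0.14), beside 15.5% higher and 17.4% lower over all genes. Along the Tfh2 numbers 3 rose and 3 fell, near the shares over all genes of 24.1% and 22.8%. With the mitochondrial rRNA share in the fit, or in replicates 4 to 6 alone, the 4 higher calls were the only ones made by edgeR in this list.

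Il12rb2, the IL-12-specific receptor chain, was higher in TfhA_4e4 together with Il23r, the IL-23-specific chain. It averaged 22.3 ± 5.28 CPM in TfhA_4e4 and 6.02 ± 3.92 CPM in Tfh2_4e4, 1.89 higher on the log2 scale (edgeR adjusted p = 0.000141), and did not pass with the mitochondrial rRNA share in the fit (1.32, edgeR adjusted p = 0.106). Il12rb1, the chain shared by both receptors, averaged 46.5 ± 7.70 CPM in TfhA_4e4 and 59.5 ± 9.75 CPM in Tfh2_4e4. Its log2 fold change of -0.35 was at the threshold (edgeR adjusted p = 0.0451) and did not pass in DESeq2 (adjusted p = 0.0661) or limma-voom (adjusted p = 0.0622), nor in edgeR without TfhA_4e4 replicate 1, 3 or 6 or Tfh2_4e4 replicate 1, 2 or 5 (adjusted p 0.0607 to 0.159), nor with the mitochondrial rRNA share in the fit (adjusted p = 0.512). Il6st, the signalling chain of the IL-6 receptor, fell by 2.68 (edgeR adjusted p = 4.93e-12) and Stat3, which acts below the IL-6 and IL-23 receptors, by 1.39 (edgeR adjusted p = 9.73e-13). Of the 11 genes of this list, 2 were higher and 4 lower (median -0.26), and 9 rose along the Tfh2 numbers. Il12rb2 had the largest of those slopes at 1.55 per doubling (edgeR adjusted p = 3.31e-10).

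Among 12 tested chemokine receptors other than Ccr6, 1 was higher and 6 lower in TfhA_4e4 than in Tfh2_4e4 (median -1.02). Cxcr6, the receptor for CXCL16, averaged 0.81 ± 0.88 CPM in TfhA_4e4 and 48.3 ± 10.4 CPM in Tfh2_4e4 and fell by 5.93 (edgeR adjusted p = 3.61e-22). Its pass through the filter came from the groups where it is high, so its direction is partly set by the filter. Cxcr3, a TH1-associated receptor, was the gene called higher, by 3.64 (edgeR adjusted p = 1.15e-07), and by 4.70 without Tfh2_4e4 replicate 3. Along the Tfh2 numbers 7 receptors rose, among them Ccr2 by 1.18 per doubling (edgeR adjusted p = 4.43e-10), and 4 fell, among them Cx3cr1 by 1.16 (edgeR adjusted p = 1.98e-10). Of 4 tested ligands other than Ccl20, 2 were higher in TfhA_4e4 than in Tfh2_4e4 (median 2.38) and 3 fell along the Tfh2 numbers. Both higher genes, Ccl3 and Ccl5, are low, neither is tested when the mean log2 CPM has to reach 1, and 4 ligands are called higher with no filter. Under the same requirement 1 ligand fell along the numbers. Ccl3, an inflammatory chemokine, averaged 7.65 ± 3.08 CPM in TfhA_4e4 and 0.71 ± 0.94 CPM in Tfh2_4e4, while Ccl20 had 0 counts in TfhA_4e4. Its log2 fold change was 3.33 (edgeR adjusted p = 7.57e-05), 4.29 without Tfh2_4e4 replicate 3 and 3.92 with the mitochondrial rRNA share in the fit. Ccl3 fell by 1.64 per doubling (edgeR adjusted p = 5.21e-07), as Ccl20 did by 1.55.

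Of 15 MS4A relatives of the TMEM176 pair, 5 were tested, and edgeR called these higher in TfhA_4e4 than in Tfh2_4e4 (median 3.44) and than in Tfh5_4e4 (median 4.93). Over all genes, 15.5% and 19.1% were called higher in these comparisons. Ms4a4c and Ms4a6d are near the floor outside TfhA_4e4 and passed the filter through that group, so their direction is partly set by the filter. Against Tfh2_4e4, 3 were called where the mean log2 CPM had to reach 1, in DESeq2, or with the mitochondrial rRNA share in the fit. Ms4a4b averaged 81.2 ± 13.4 CPM in TfhA_4e4 and 4.83 ± 6.11 CPM in Tfh2_4e4, 4.03 higher on the log2 scale (edgeR adjusted p = 4.46e-10) 5.10 higher without Tfh2_4e4 replicate 3 and 3.19 higher with the mitochondrial rRNA share in the fit. Ms4a6b averaged 163.7 ± 17.8 CPM in TfhA_4e4 and 39.2 ± 9.50 CPM in Tfh2_4e4, 2.06 higher (edgeR adjusted p = 4.96e-14). Along the Tfh2 numbers Ms4a6b rose by 0.56 per doubling (edgeR adjusted p = 1.02e-10), where Tmem176b fell by 0.28. Reads of close MS4A paralogs may have been split between them, since the treatment of multi-mapping reads is not given.

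**Figure D5:**
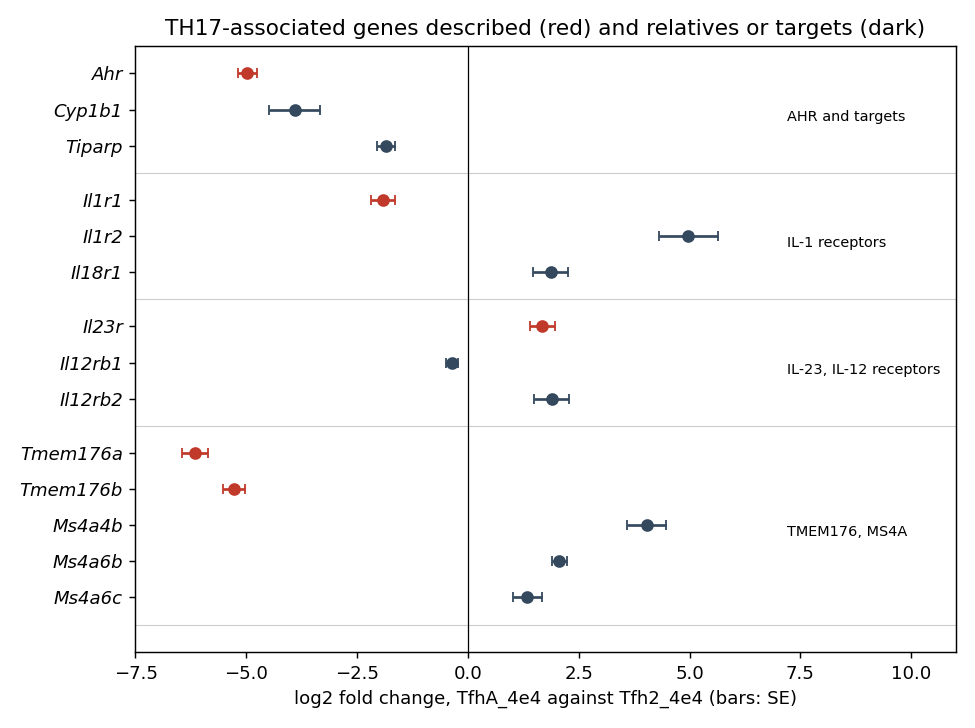
Log2 fold changes of TfhA_4e4 against Tfh2_4e4 (x axis, bars are SE) of 5 of the 8 genes (red) and of relatives or targets (dark), grouped by role. Il1r1 (-1.91) and Il1r2 (4.97), and Tmem176a (-6.15) and Ms4a4b (4.03), lie on opposite sides of 0. The directions of Cyp1b1, Il1r2, Tmem176a and Tmem176b are partly set by the filter on low counts.

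The genes with the most similar profile over the 6 group means were found by the root mean square difference of centred log2 CPM, among the 9304 genes whose mean log2 CPM was 1 or more. Nothing about shared function or control follows from such a match. Rora was closest to Cxcr4 (0.13) and Emilin1 (0.14), Ahr to Prr5l (0.17) and Ctla2b (0.20), and Il23r to Adora2b (0.17) and Icos (0.28). Il1r1 was closest to Plod2 (0.19) and Arrdc3 (0.22), and Ccl20, with the poorest matches, to Rasgrp3 (0.49) and Tgfbi (0.52). Tmem176a was closest to Cxcr6 (0.09) and Myo3b (0.16), and Tmem176b to Nt5e (0.17) and Maf (0.19). Among the 8 genes themselves, Tmem176a and Tmem176b were each other's nearest (0.31), and Il23r was far from all others, with Ccr6 nearest at 1.53. Slc26a2 (0.18) was among the 2 closest to Ccr6. With a prior count of 5 in place of 1 on the log scale, 7 of the 16 names were kept. The closest name stayed the same for 2 of the 8 genes, Cxcr4 for Rora and Adora2b for Il23r.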

How the data were processed

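The authors deposited raw counts, 1 table of whole counts per gene identifier for each of 34 libraries, and a joined table that was not used here. STAR 2.7.2b, featureCounts 1.6.4 and mm10 appear, with no role stated, in the submitters' processing notes. The strand setting and the treatment of multi-mapping reads are not given in the sources used here. Identifiers were matched to symbols (25275 of 27179) in the GRCm38.p6 annotation. Groups came from the sample titles.

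A single edgeR 4.0.16 model (R 4.3.3) covered the counts of all 34 libraries, scaled by TMM and filtered by filterByExpr on the groups, without covariates. Its quasi-likelihood tests are two-sided, and Benjamini-Hochberg adjustment ran over the 11357 genes tested, with a threshold of 0.05. The slope is a contrast of the Tfh2 groups against log2 of their number. CPM uses the TMM-normalized totals, and log2 CPM a prior count of 1. Limits for 0 counts use 3 counts over the group and cover counting error only, as the labels name no molecular identifiers. Intervals are 95%. Alternatives used DESeq2 1.42.0, limma-voom (limma 3.58.1), other scalings, filters, covariates and library subsets. The named genes are the 8 genes, the defining genes of each list, up to 4 called genes for a list in a comparison (largest change first, mean log2 CPM 1 or more), and the 2 closest profiles of each gene. Some genes within the rule are not reported here. The 8 genes and all lists were chosen with earlier results of these data known.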

Additional observations from a re-analysis of the deposited data

Results flagged for a closer look

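In 4 of 47 sets of a gene and a group examined, the highest library stood far from the rest of its group by Dixon's criterion, where chance alone marks about 1 in 20 sets. Il1r1 in Tfh2_6e4 had 15.4 CPM in replicate 5, with the next library at 10.4 CPM. Ccl20 had 65.2 CPM in replicate 6 of Tfh2_1e4, with the next library at 23.0 CPM, and 4.69 CPM in replicate 3 of Tfh2_6e4, with the next at 1.77 CPM. Tmem176a in Tfh2_4e4 had 43.2 CPM in replicate 1, with the next library at 34.5 CPM. The causes were not tested.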

How the results depend on the processing

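Over 48 settings, 1089 of 1112 values of the 8 genes kept their direction and their side of the threshold, 19 lost the call, 2 gained it and 2 changed sign. The sign changes were of uncalled differences between Tfh5_4e4 and Tfh2_4e4 in replicates 4 to 6 alone, -0.039 for Rora and -0.034 for Ahr. In replicates 1 to 3 alone, 2263 genes were called for TfhA_4e4 against Tfh2_4e4 (3729 with all), 3230 for Tfh2_6e4 against Tfh2_1e4 (4888) and 97 for Tfh5_4e4 against Tfh2_4e4 (353). In replicates 4 to 6 alone, 2825 were called for TfhA_4e4 against Tfh5_4e4 (4490) and 127 for Tfh5_4e4 against Tfh2_4e4. These subsets hold fewer samples, and other causes were not tested. With the replicate block, 582 genes and 2 of the 8 were called for Tfh5_4e4 against Tfh2_4e4, and 2 of the 8 with both replicate ranges as a factor (Tmem176b adjusted p = 0.0332). In replicates 1 to 3 alone edgeR called 0 of the 8 there, and Il23r at -0.97 had an adjusted p of 0.254. Of 80 pairs of libraries with the same number, 34 had deviations from their group means that correlated above 0.1 (mean 0.09, against -0.02 for other pairs). For 20 of 34 libraries the best match in another group shared the number. Neither the share of other pairs above 0.1 nor the number of matches due to chance was computed. The labels state no pairing, so samples were not paired in the main fit, and the fit with the replicate block is the alternative given above. Leaving out 1 library gave 3369 to 3768 genes called for TfhA_4e4 against Tfh2_4e4, 4161 to 4377 for TfhA_4e4 against Tfh5_4e4, 232 (without Tfh5_4e4 replicate 3) to 409 for Tfh5_4e4 against Tfh2_4e4, 5073 to 5366 for the slope and 4622 to 4783 for Tfh2_6e4 against Tfh2_1e4. Of the 8 genes, 8, 8, 1, 7 and 5 to 7 were then called in these comparisons. Depth limits Tmem176a and Tmem176b in TfhA_4e4, with 13 and 31 counts over the group, and Ccl20, with 0.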
